A study of Mus musculus with 12 samples.

Results

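GATA1 intervals mapped in the HPC7 cell line were compared with MOF summits mapped in sorted megakaryocyte-erythroid progenitors (MEP). Every MOF summit, a single base in the deposited list, was extended by 150 bp on each side. A GATA1 interval and an extended summit that shared at least 1 bp were called overlapping, and the remaining members were called GATA1 only or MOF only. Chromosomes 1 to 19 and X were used, and chromosome 9 below 4 Mb was left out. This kept 464 of 477 GATA1 intervals and 829 of 898 MOF summits, together 1293 of the 3653 peaks in the 5 deposited lists.

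The series mapped chromatin occupancy in mouse blood progenitors by chromatin immunoprecipitation and sequencing (ChIP-seq) and held 12 samples. GATA1 was precipitated from HPC7, a haematopoietic progenitor line labelled wild type, at passage 3, grown with 10% fetal calf serum and 10 ng/mL stem cell factor. MOF was precipitated from 30000 wild-type C57BL/6 MEP, sorted as cells lacking lineage markers, Sca-1, CD34, Il7r and CD16/32 and carrying Kit, from marrow pooled over several bones. The other MOF lists, used below only to ask where the same sites were called again, came from 15000 wild-type haematopoietic stem cells (HSC), from 15000 Mof -/+ HSC and from 30000 Mof -/+ MEP, all of the C57BL/6 strain. The ages and number of the animals and the strain of HPC7 are not given in the labels. Each list came from 1 library, so no difference has a replicate check, and every test below compares lists of peaks and not conditions. Factor, cell source and list format changed together between the GATA1 and the MOF list, and their parts cannot be told apart. Peak lists carry no expression values, so the labelled cell types were not checked against marker RNA. The labels state no read numbers, and sequencing depth is therefore unknown for every list.

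GATA1 is a zinc-finger transcription factor that binds GATA motifs, often at enhancers far from gene starts, and drives erythroid, megakaryocyte and mast cell differentiation. MOF, which Kat8 encodes, works within the MSL and NSL complexes and acetylates histone H4, giving the mark H4K16ac. The NSL complex is known to sit at promoters of broadly expressed genes, whereas much of GATA1 binding in red cell precursors lies inside genes and between them.

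The sequences that follow are chosen examples of promoter windows from the classes. They were taken from RefSeq promoter entries on GRCm38.p6, the same assembly as mm10, and each is printed 5′ to 3′ on the strand of its gene. The first lies under a GATA1-only interval, and its capitals mark matches to AGATAG or its reverse complement CTATCT within that interval. It was picked because it holds GATA motifs, which were present in only 2 of the 9 GATA1-only windows. The second is the start of Kat8, and its capitals mark the 63 bases covered by both the GATA1 interval and the extended MOF summit. The remaining 4 are the start regions of the protein-coding genes with the highest MOF-only summits in a promoter window, and their capitals mark the bases up to 10 bp on either side of the summit, as far as the window reaches.
4930467E23Rik, GATA1 only, chr8:19729326-19729561, plus strand: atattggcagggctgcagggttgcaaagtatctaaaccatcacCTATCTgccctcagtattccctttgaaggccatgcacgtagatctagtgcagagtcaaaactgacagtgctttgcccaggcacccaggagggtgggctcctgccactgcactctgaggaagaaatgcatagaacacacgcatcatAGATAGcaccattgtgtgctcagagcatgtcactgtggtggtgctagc
Kat8, overlapping, chr7:127912267-127912566, plus strand: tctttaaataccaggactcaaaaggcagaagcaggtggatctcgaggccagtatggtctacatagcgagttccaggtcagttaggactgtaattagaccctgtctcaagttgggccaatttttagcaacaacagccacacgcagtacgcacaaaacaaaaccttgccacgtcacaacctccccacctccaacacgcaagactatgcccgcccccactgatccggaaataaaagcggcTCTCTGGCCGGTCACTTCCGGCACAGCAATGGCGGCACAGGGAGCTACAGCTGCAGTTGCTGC
Srsf1, MOF only, chr11:88047355-88047422, plus strand: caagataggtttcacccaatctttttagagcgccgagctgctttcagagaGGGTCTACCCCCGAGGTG
Smarca5, MOF only, chr8:80739573-80739693, minus strand: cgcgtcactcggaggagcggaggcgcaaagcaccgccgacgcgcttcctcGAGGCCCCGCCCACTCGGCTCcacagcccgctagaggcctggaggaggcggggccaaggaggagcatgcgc
Camsap1, MOF only, chr2:25983378-25983498, minus strand: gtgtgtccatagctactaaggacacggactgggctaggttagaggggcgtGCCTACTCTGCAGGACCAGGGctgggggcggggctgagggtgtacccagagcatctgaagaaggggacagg
Nol11, MOF only, chr11:107189332-107189447, minus strand: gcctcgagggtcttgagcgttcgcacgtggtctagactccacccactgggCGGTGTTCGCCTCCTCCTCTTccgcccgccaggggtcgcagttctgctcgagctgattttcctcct

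Few members carried both factors. Of the 464 GATA1 intervals, 53 (11.4%, 95% Wilson interval 8.84 to 14.6) overlapped a MOF summit, and 411 did not. Of the 829 MOF summits, 55 (6.63%, interval 5.13 to 8.54) overlapped a GATA1 interval, and 774 did not. These intervals cover counting error only. The 53 intervals and 55 summits formed 55 pairs, because 2 wide intervals each held a pair of summits. Inside these pairs the positions were close: the summit lay within the GATA1 interval in 52 of 55 pairs, and within 50 bp of the interval's midpoint in 40. The median distance from summit to midpoint was 22.5 bp. The 3 summits that met the 1 bp rule from outside lay 2, 31 and 31 bp beyond an interval's edge. The nearest GATA1-only intervals on the other side of the rule lay 224 bp from a MOF summit on chromosome 16, 256 bp from one within Gm36327 and 485 bp from one within Gm40367.

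The overlap was concentrated among the strongest MOF summits. The authors' −log10 value per summit, which describes summits within this 1 list only, had a median of 24.2 in the overlapping class (quartiles 10.7 and 47.4, range 1.61 to 202). In the MOF-only class the median was 5.19 (quartiles 3.86 and 6.97, range 1.35 to 65.2). Of the 10 MOF summits with the highest value, 9 overlapped GATA1, as did 13 of the next 15. The share then fell to 7 of 25 for ranks 26 to 50, 11 of 50 for ranks 51 to 100 and 4 of 429 for ranks 401 to 829. GATA1 intervals carry no score, and their widths showed a different shape. Of the 10 widest intervals 9 overlapped MOF, but only 1 of the next 15 did, 2 of 25 at ranks 26 to 50 and 3 of 50 at ranks 51 to 100. The share was higher at ranks 101 to 200 (17 of 100) and 201 to 400 (21 of 200). At ranks 401 to 464 it was 0 of 64, which allows a share of up to 4.69%. Those 64 are part of a larger group tied at the narrowest width, ordered by position. The median width was 344 bp in the overlapping class (quartiles 261 and 585) and 247 bp in the GATA1-only class (quartiles 165.5 and 476). The narrowest width in the list, 149 bp, was that of 82 of the 411 GATA1-only intervals and of 0 of the 53 overlapping ones, which allows up to 5.66% of them.

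**Figure D1:**
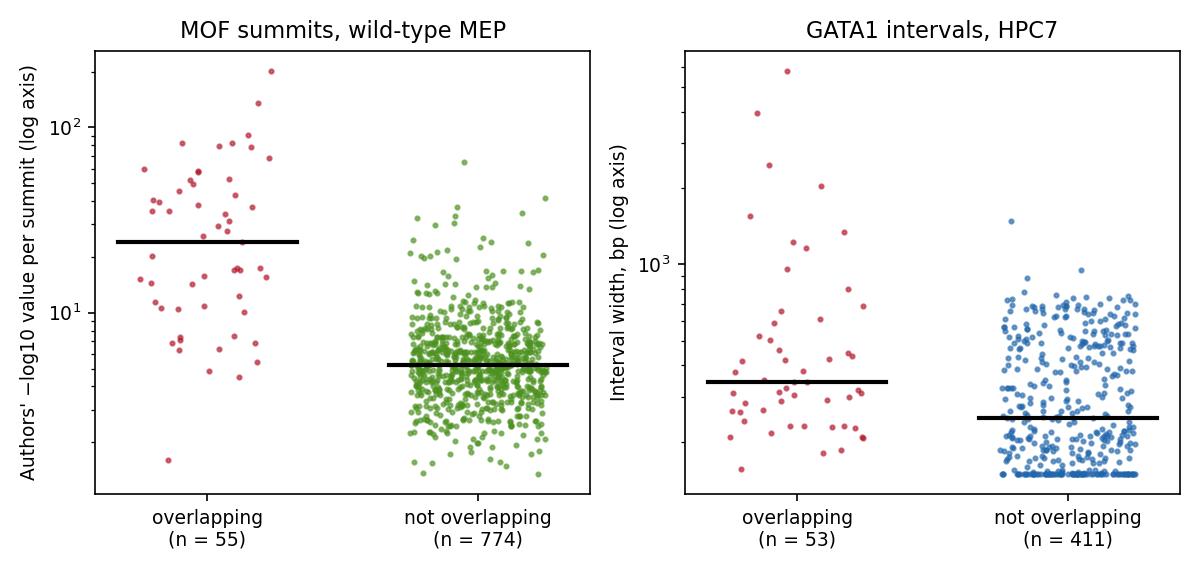
The authors' −log10 value of each MOF summit (left) and the width of each GATA1 interval in bp (right), both on log axes, with 1 point per member and a bar at the class median. Overlapping MOF summits reach 202 around a median of 24.2 against 5.19 for the others, while the widths of the GATA1 classes overlap broadly around medians of 344 and 247 bp.

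**Figure D2:**
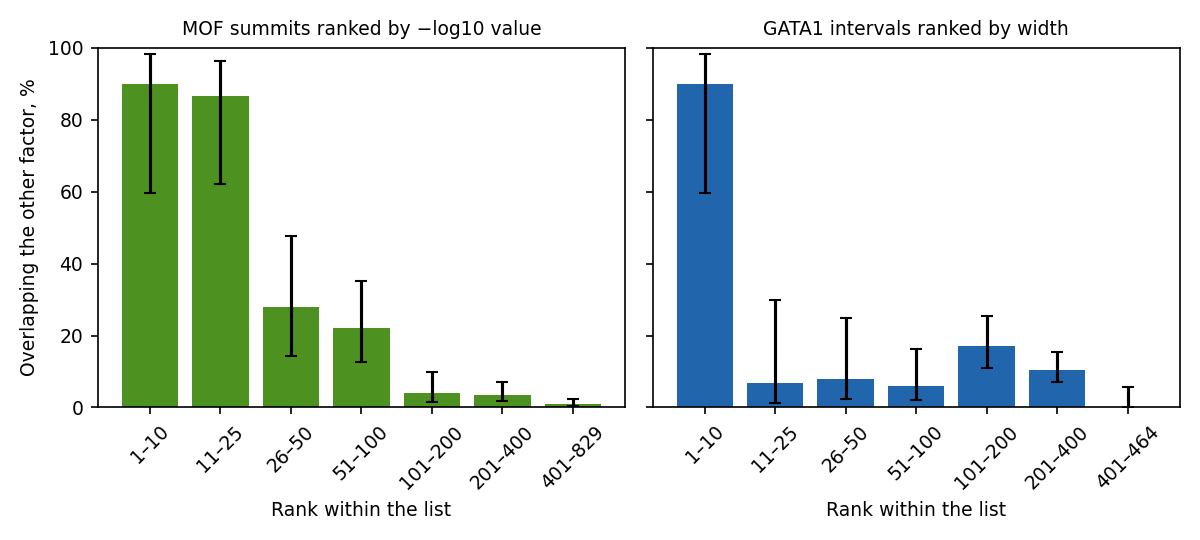
Share of members that overlap the other factor, in percent, by rank of MOF value (left) and of GATA1 width (right), with 95% Wilson intervals as error bars. The share is 90.0% among the first 10 of either ranking, and it stays high for MOF ranks 11 to 25 (86.7%) but not for GATA1 ranks 11 to 25 (6.67%).

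The shared sites with the highest MOF values lay in Kat8, in non-coding genes or far from protein-coding genes, with few exceptions. The MOF summit with the highest value of the list, 202 at chr17:4626351, fell in a GATA1 interval of 266 bp within the non-coding gene Gm34259, with Arid1b, a subunit of the BAF chromatin remodelling complex, as the nearest protein-coding gene at 368 kb. The next was inside Kat8 itself (135 at chr7:127924655, GATA1 interval of 1338 bp). In all, 4 of the 53 overlapping intervals lay in Kat8, over 13.2 kb, with MOF values of 135, 78.1, 58.2 and 24.2, and 1 further GATA1 interval in that gene had no MOF summit. The interval at the summit of 78.1 reached across the start of the gene, and its shared stretch is the one printed in capitals above. A summit of 90.7 at chr11:109011906 lay within Gm36876, a non-coding gene, at 61.1 kb from Axin2, which codes for an inhibitor of Wnt signalling. The widest GATA1 interval in the comparison, 5784 bp, covered the ribosomal RNA related sequence Rn18s-rs5 on chromosome 17, where the MOF value was 82.3.

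Of the other shared sites among the 15 with the highest MOF value, 3 were inside protein-coding genes or in a non-coding gene near one. A summit of 82.0 lay inside Numa1, which codes for a spindle pole protein, under a GATA1 interval of 606 bp. A summit of 49.4 lay in the non-coding gene Gm33838, 29.5 kb from Rpusd4, a mitochondrial pseudouridine synthase gene. A summit of 45.4 lay where Filip1l and Cmss1 overlap each other. The others stood far from protein-coding genes. On chromosome 14, a single GATA1 interval of 3958 bp held summits of 79.8 and 57.7, at 115 and 118 kb from Gm2244. A further summit of 68.2 on the same chromosome was 124 kb from Fgf14. On chromosome 2, summits of 59.7 and 52.3 lay 1031 and 1035 kb from Lrrc4c, and on chromosome 3 a summit of 52.7 lay 282 kb from Pex2. No genome sequence was used here, so whether these positions lie in repeated sequence was not tested.

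Further down the list, shared sites were found inside protein-coding genes of varied function. They included Lars2, the mitochondrial leucyl-tRNA synthetase (39.4), Cdk8, a Mediator kinase (34.2), Chl1, a neural cell adhesion molecule (31.5), and Gphn, the gephyrin gene (20.1). Dpp9, a serine peptidase gene, carried 17.4, Zc3h7a 16.9, Jarid2, a cofactor of Polycomb repressive complex 2, 15.9 and Peak1, a pseudokinase gene, 10.8. The site nearest to Wls, which is required for Wnt secretion, lay 0.890 kb outside the gene with a value of 15.6. These genes were chosen after their values were seen. None of them belongs to the erythroid, megakaryocyte or GATA1 partner lists given below.

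The classes differed in where they lay relative to genes. A midpoint within 1 kb of either end of a protein-coding gene was found for 414 of 774 MOF-only summits (53.5%), but for 3 of 55 overlapping summits (5.45%), 4 of 53 overlapping GATA1 intervals (7.55%) and 25 of 411 GATA1-only intervals (6.08%). Overlapping MOF summits were thus 48.0 percentage points less often at a gene end than MOF-only summits (a difference of -48.0, 95% interval -53.0 to -38.0; adjusted p = 2.5e-13, two-sided Fisher's exact test, Benjamini-Hochberg over 15 tests). This difference was smaller among the 100 MOF summits with the highest value, where 3 of 40 overlapping and 17 of 60 MOF-only summits lay at a gene end (difference -20.8, interval -34.2 to -5.04; adjusted p = 0.019, same exact test). GATA1-only intervals also lay at gene ends less often than MOF-only summits, by a difference of -47.4 points (interval -51.4 to -42.9; adjusted p = 1.5e-66, same exact test). For overlapping against GATA1-only intervals the difference was 1.46 points, with an interval from -3.87 to 12.0 that includes 0 (adjusted p = 0.76, same exact test). Nearby members and neighbouring genes are not independent of each other, and the tests do not account for that. An overlapping summit lies in or beside a GATA1 interval, so its location follows that of the interval. Its contrast with MOF-only summits is therefore not separate from the contrast between the GATA1 and MOF lists. The same limit applies to the gene-body shares given next.

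**Figure D3:**
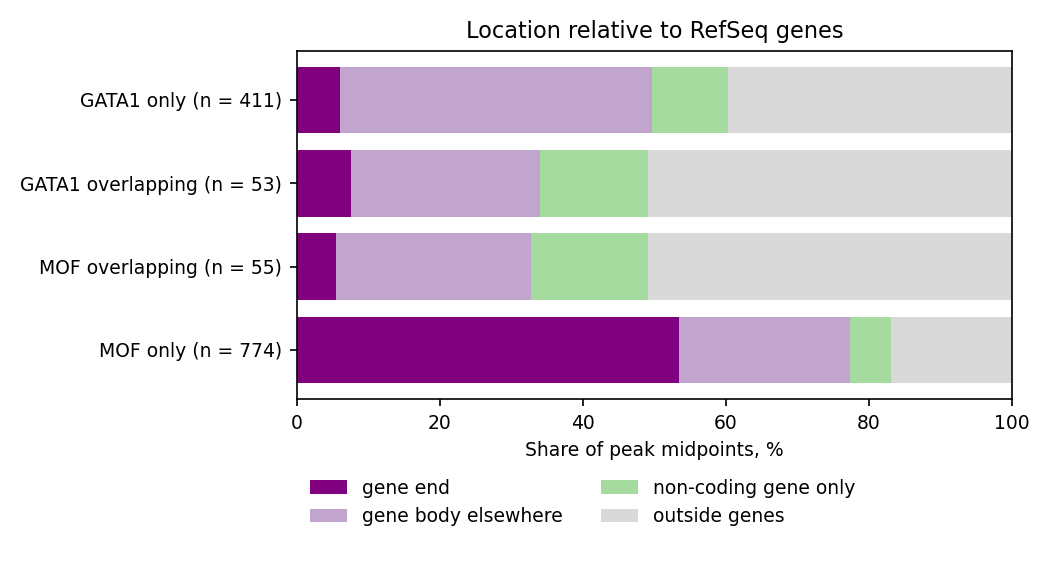
Location of the members of each class relative to RefSeq genes, as stacked shares in percent: within 1 kb of an end of a protein-coding gene, elsewhere in such a gene, in a non-coding gene only, or outside genes. Gene ends hold 53.5% of MOF-only summits and 5.45 to 7.55% of the members of the other 3 classes.

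Outside gene ends, GATA1-only intervals were mostly intragenic or intergenic. They lay elsewhere in a protein-coding gene in 179 of 411 cases (43.6%), in a non-coding gene alone in 44 (10.7%) and outside genes in 163 (39.7%). Overlapping intervals lay outside genes in 27 of 53 cases (50.9%) and more than 100 kb from any protein-coding gene in 17 (32.1%, Wilson interval 21.1 to 45.5), against 64 of 411 GATA1-only intervals (15.6%, 12.4 to 19.4) and 18 of 774 MOF-only summits (2.33%, 1.48 to 3.65). Counting all positions in a protein-coding gene body, the share was 32.1% of overlapping and 47.4% of GATA1-only intervals (difference -15.4 points, interval -27.4 to -1.14; adjusted p = 0.055, Fisher's exact test as above). It was 30.9% of overlapping and 51.3% of MOF-only summits (difference -20.4, interval -31.6 to -6.80; adjusted p = 0.0081, same exact test). Between GATA1-only and MOF-only members the difference was -3.85 points (interval -9.78 to 2.13; adjusted p = 0.26, same exact test), so these lay inside genes at shares that the test did not separate.

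The MOF-only summits at gene ends had their highest values at a predicted gene, Gm40364 (34.4), in a repeated region described below, and at Srsf1, a splicing factor gene (16.8). Others with high values lay at the histone gene H4c17 (15.97), Smarca5, the ISWI remodeller ATPase (15.9), Brpf1, a scaffold of MOZ acetyltransferase complexes (14.3), Camsap1, a microtubule minus-end protein (12.9), Nol11, a ribosome biogenesis factor (12.8), and Ddx5, an RNA helicase (12.6). Among the 25 GATA1-only intervals at gene ends were Med15, a Mediator subunit (585 bp wide), Dctn3, a dynactin subunit (395 bp), Kdm7a, a histone demethylase (180 bp), Mta2, a NuRD subunit (149 bp), and Bcl9l, a β-catenin cofactor (149 bp).

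The 10 MOF-only summits with the highest value were not typical of their class, since only 1 of them lay at a gene end. The highest, 65.2 at chr1:24613415, was 25.5 kb from the collagen gene Col19a1. Another lay in Myo3a, a myosin gene (37.3), and another in Cpeb4, a regulator of mRNA polyadenylation (25.5). The remaining 7 all lay in a single repeated region of chromosome 6, with values from 24.6 to 41.6.

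The 10 widest GATA1-only intervals gave no common gene group. The widest, 1480 bp, lay in LOC100504180. It was followed by Stam2, an endosomal sorting gene (946 bp), by a position shared by Gm20517 and Usp49, a histone deubiquitinase gene (882 bp), and by one 31.1 kb from the adhesion receptor gene Adgrd1 (777 bp). Further intervals lay near Gm21119 on chromosome 8 (759 and 739 bp), 5.49 kb from Aqp3, a water and glycerol channel gene (748 bp), 129 bp from the 5S ribosomal RNA gene n-R5s149 (743 bp), in Atp8b3, a phospholipid flippase gene (733 bp), and in Gm36327 (728 bp). Chromosome 8 held 48 of the 411 GATA1-only intervals (11.7%) and 29 of the 774 MOF-only summits (3.75%).

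Promoter windows, which run from 250 bases before to 50 after a gene's start, gave the same contrast with strand taken into account. RefSeq windows were at hand for 17243 of 21117 protein-coding genes (81.7%) outside chromosome 18, for which none was used here. An extended MOF-only summit touched a window in 326 of 751 cases (43.4%, Wilson interval 39.9 to 47.0), a GATA1-only interval in 8 of 395 (2.03%, 1.03 to 3.95), and an overlapping GATA1 interval in 2 of 51 (3.92%, 1.08 to 13.2). The GATA1-only windows belonged to Dctn3, Odaph, Gm52788, Kdm7a, Sec1, Pgap2 with 2 starts, 4930467E23Rik and Pdlim3. The overlapping ones were those of Gm40237 and of Kat8, which has 2 starts.

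Windows under MOF-only summits held more CpG and less often GATA letters than protein-coding windows as a whole, a difference given as a description without a test. Both strands were searched, and motifs could overlap each other. GATA motifs were counted as the letters GATA with A or T before them and A or G after them, so that AGATAA is one of the 4 forms. They were present in 58 of 407 MOF-only windows (14.3%), compared with 25.8% of 21011 protein-coding windows and 29.6% of all 32585. They were present in 2 of the 9 GATA1-only windows, Gm52788 and 4930467E23Rik, and in the latter both matches lay under the interval, as the first sequence printed above shows. In Gm52788 no match lay in the part that the interval covered. GATA motifs were present in 0 of the 3 windows under overlapping GATA1 intervals. GGGCGG, the core letters of the GC box, was present in 70.0% of MOF-only and 46.6% of protein-coding windows, CCGGAA, an ETS-type core, in 35.4% against 18.9%, and GATGGCGG in 5.16% against 2.28%. TATAAA went the other way, with 9.34% against 12.7%, and CCAAT differed little, with 35.6% against 38.5%. The median window under MOF only held 24 CpG and 62.0% G and C, and that of all protein-coding genes 13 CpG and 56.7%. The median of the 9 GATA1-only windows was 11 CpG and 54.0%. A match is a description of the letters and not evidence of binding.

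Annotated small RNA genes were another place where the classes parted. Within 1 kb of a tRNA, snRNA, snoRNA, rRNA, miRNA or other small RNA gene lay 72 of 774 MOF-only summits (9.30%, Wilson interval 7.45 to 11.6), 10 of 411 GATA1-only intervals (2.43%, 1.33 to 4.42) and 0 of 53 overlapping intervals, which allows up to 5.66%. This difference was not tested, and the counts depend on which genes are annotated as small RNA. Rn18s-rs5, which an overlapping interval covers, was not counted as such a gene. The repeated region around Rn4.5s held 3 overlapping intervals but only 1 annotated 4.5S RNA gene. The 0 for overlapping intervals therefore does not mean that they lay away from sequences related to small or ribosomal RNA. The snRNA annotation covers spliceosomal RNA genes such as Rnu1a1 and also U3 RNA genes such as Rnu3b3, which are not spliceosomal. Of the MOF-only summits, 28 were near genes annotated as snRNA and 26 near tRNA genes. GATA1-only intervals had 0 near either kind, which allows up to 0.730%. The highest MOF values at such genes were 24.2 near the 4.5S RNA gene Rn4.5s, 23.7 at Rnu2-10, a U2 snRNA gene, and 21.1 at Rnu1a1, a U1 snRNA gene.

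Members of a class also came in runs. A run was counted where at least 4 members of a class followed each other with gaps of at most 100 kb. MOF-only summits formed 13 runs with 83 members in all, the longest of 16 summits over 245 kb in the histone gene cluster of chromosome 13, where 29 protein-coding genes and 7 tRNA genes lie. Small RNA genes were annotated in 8 of the 13 runs. A run of 6 summits over 48.5 kb on chromosome 11 covered 7 genes annotated as snRNA within Tex14, U3 RNA genes among them. Another 6 over 42.9 kb on chromosome 12 also covered 7 genes with that annotation. GATA1-only intervals formed 3 runs with 16 members, of which 2 held 0 small RNA genes. In the third, 5 intervals spread over 84.5 kb of chromosome 8 that hold 48 annotated 5S ribosomal RNA genes (chr8:123538036-123622546), with 0 MOF summits.

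The repeated region around Rn4.5s on chromosome 6 held several members of both factors close together, as did Kat8 and the positions near Lrrc4c on chromosome 2. The latter, within chr2:98662196-98667364, had 4 GATA1 intervals, 3 of which overlapped the 3 MOF summits found there (59.7, 43.4 and 52.3). The 4.5S RNA is a small rodent RNA made by RNA polymerase III from tandemly repeated genes, of which RefSeq annotates 1 here (chr6:47654921-47655094). The region around Rn4.5s held 16 MOF summits over 117 kb, with values from 8.23 to 41.6, and 6 GATA1 intervals, 3 of which overlapped a summit. Of the 15 spacings between neighbouring summits, 14 were under 10 kb, with a median of 4.34 kb and a range of 4.27 to 5.54 kb. The GATA1 midpoints stood beside the summits: the nearest summit lay 165 to 844 bp from the interval's midpoint in 5 cases and at 253 bp in the other, and it had the lower coordinate in 5 of 6. Reads from near-identical copies cannot be assigned to a single copy with certainty, so the positions within this region are uncertain. The region is called repeated from this background and from the regular spacing of its summits, and its sequence was not checked.

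**Figure D4:**
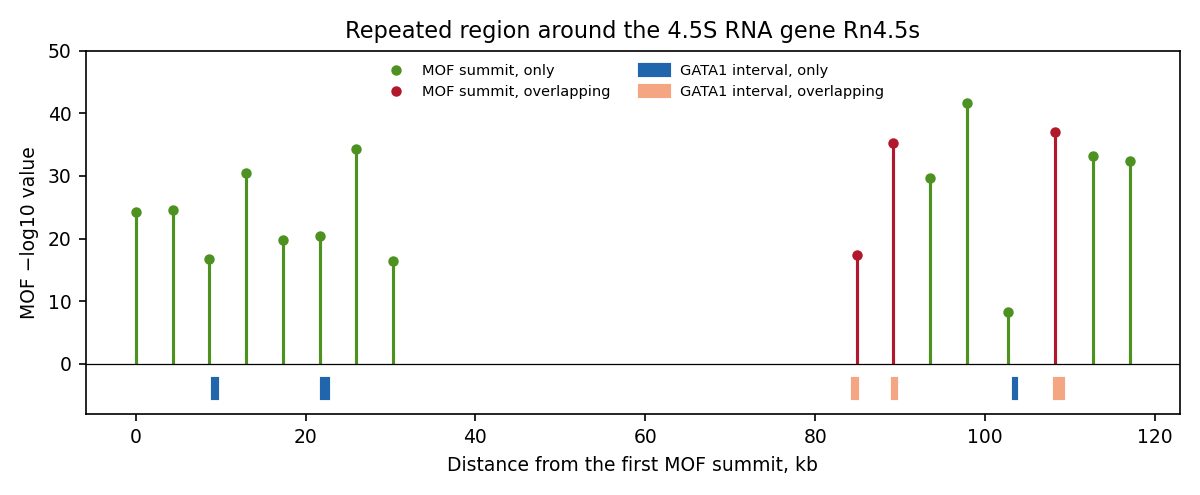
MOF summits (stems, height is the authors' −log10 value) and GATA1 intervals (boxes under the axis, width to scale) along the repeated region, as distance in kb from its first MOF summit. The 16 summits recur at a median spacing of 4.34 kb on both sides of a gap, and 3 of the 6 GATA1 intervals overlap one of them.

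Most GATA1-only intervals had no MOF summit within 100 kb. The distance that the number of summits alone would give was not computed, so these values do not show that the factors keep apart. The median distance from a GATA1-only interval to the nearest MOF summit was 934 kb (quartiles 323 and 2083 kb), and 5 of 411 lay within 1 kb, 12 within 10 kb and 49 within 100 kb. Of the 5 within 1 kb, 3 were in the repeated region of chromosome 6.

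At the level of genes, a member was assigned to every protein-coding gene whose body, extended by 5 kb on each side, it touched. Of 21627 genes, 286 (1.32%) carried GATA1, 876 (4.05%) carried MOF, and 35 (0.162%) carried both. The 35 genes were 12.2% of the GATA1 genes and 3.995% of the MOF genes, and 21 of them held an overlapping site. Both factors at separate positions, with members that did not overlap the other factor, were found in 15 genes (0.0694%), which is 5.24% of the GATA1 genes and 1.71% of the MOF genes. The 5.24% is near the 4.05% of all genes that carried MOF, and the 1.71% is near the 1.32% that carried GATA1. The count therefore gives no result about these genes, which are named below as a description. These 15 genes rested on 10 GATA1 intervals and 16 MOF summits, since neighbouring genes share members.

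A group of 5 of the 15 genes, namely Gm36327, Gm40365, Gm40364, Gm40367 and Gm40363, were predicted genes of the repeated region on chromosome 6, with the factors 0.256 to 3.34 kb apart. Another 3 shared a single GATA1 interval of 149 bp at chr9:21589195-21589343, namely Carm1, a histone arginine methyltransferase gene, Yipf2, and Timm29, a mitochondrial import gene. A MOF summit of 2.84 lay 3.65 kb from that interval, and Carm1 had a further summit of 8.17 at its other end. In Eef2kmt, a lysine methyltransferase gene acting on elongation factor 2, the GATA1 interval (619 bp) was 5.50 kb from a MOF summit of 6.29 that lay 10 bp from the gene's end. The distance was 10.2 kb for Puf60, a splicing factor gene (MOF 4.35), again with the summit at a gene end and GATA1 elsewhere. That summit lay 276 bp outside Puf60, and the gene assigned as nearest to it was Scrib. In Sfi1, a centrosome gene, the distance was 6.73 kb, and both members lay inside the gene.

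A further 3 genes held the factors further apart. The distance was 45.2 kb in Pstpip2, an adaptor gene of the actin cytoskeleton expressed in myeloid cells, 60.7 kb in Gm20517 and 133 kb in Enox1, and in Pstpip2 and Enox1 both members were inside the gene away from its ends. Among the 10 genes outside the repeated region, the nearest MOF summit lay within 1 kb of an end of that gene in 6, and the GATA1 midpoint in 2. The count of such genes moved with the rule: it was 6 with the gene body alone and 39 with 20 kb on each side. It was 9 with MOF summits above the median value and 8 with GATA1 intervals wider than the median.

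In the lists of genes with known roles in these lineages, 2 genes carried GATA1, Mef2c and Mecom. Counts are to be read against the background of 1.32% of genes for GATA1 and 4.05% for MOF. For lists of this size the GATA1 counts are near that background and give no result about the lists. Of 30 erythroid effector genes 0 carried a GATA1 interval, which allows up to 10.0%, and 4 carried MOF. These included Tfrc, the transferrin receptor (8.35, 145 bp from the gene's end), Car1, a carbonic anhydrase (7.56, 126 bp), and Sptb, the erythroid β-spectrin (4.31, inside the gene). Of 23 genes for GATA1 and its partners 0 carried GATA1, which allows up to 13.0%, and 2 carried MOF, namely Zfpm1, the GATA1 cofactor FOG1 (8.28, 128 bp from the end), and Tcf3, an E protein (6.52, 54 bp). The Gata1 gene itself was 21.8 Mb from the nearest GATA1 interval and 0.126 Mb from the nearest MOF summit.

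Single GATA1 intervals were found in genes of the other lists. Of 20 megakaryocyte genes, 1 carried GATA1, the transcription factor gene Mef2c (193 bp, 58.0 kb from the nearer gene end), and 1 carried MOF, Rab27b, a granule transport GTPase gene (2.46). Of 25 stem and progenitor genes, 1 carried GATA1, Mecom, the EVI1 gene (149 bp, 204 kb from the nearer end), and 2 carried MOF, Zfp36l2, an RNA-binding protein gene (4.54), and Etv6, an ETS factor gene (2.52). Of 14 genes for MOF and its complexes, Kat8 carried both factors and Phf20, an NSL subunit, MOF alone (8.42). Of 22 other histone acetylation genes 0 carried GATA1 and 2 carried MOF, namely the acetyltransferase gene Kat7 (5.002) and the deacetylase gene Hdac7 (3.23).

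Markers of other cell types carried GATA1 in a single case. GATA1 was found at 0 of 20 myeloid, 0 of 20 lymphoid and 0 of 11 mast cell genes and at 1 of 12 stromal and endothelial genes, Cdh5, the VE-cadherin gene (332 bp). MOF was found at 3 of 20 myeloid genes, Fcgr3 (7.03), Cebpe (6.80) and Cd68 (4.13), at 1 of 20 lymphoid genes, Rag2 (4.43), and at 0 of the mast cell and stromal lists. The Fcgr3 and Rag2 summits lay inside those genes, but the gene assigned as nearest to the Rag2 summit was Iftap. The Cebpe summit lay 4.29 kb outside Cebpe, and the Cd68 summit 1.665 kb outside Cd68, with Mpdu1 as its nearest gene. Histone genes carried MOF in 51 of 74 cases, which rested on 33 summits because neighbouring genes share them, and ribosomal protein genes in 19 of 84, on 19 summits. GATA1 was found at 0 of either group (up to 4.05% and 3.57%), limits that lie above the background of 1.32%. Of 1106 olfactory receptor genes, 1 carried GATA1, Olfr11 (666 bp), and 2 carried MOF, Olfr769 (6.01) and Olfr414 (1.97).

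Overlapping sites were called again in the Mof -/+ libraries far more often than MOF-only summits. In Mof -/+ HSC, 46 of 55 overlapping summits (83.6%) and 33 of 774 MOF-only summits (4.26%) were present again, a difference of 79.4 points (interval 67.4 to 87.0; adjusted p = 4.5e-44, Fisher's exact test with Benjamini-Hochberg adjustment over 15 tests). In Mof -/+ MEP these were 20 of 55 (36.4%) and 2 of 774 (0.258%), a difference of 36.1 points (interval 24.7 to 49.3; adjusted p = 3.5e-23, same exact test). The 2 were in Camk1d, a calcium-dependent kinase gene (21.9), and in Cntnap5b (9.89). In wild-type HSC the classes were closer, with 23 of 55 (41.8%) and 231 of 774 (29.8%), and the difference of 12.0 points had an interval from -0.554 to 25.5 (adjusted p = 0.087, same exact test). The wild-type lists hold single summits and the Mof -/+ lists wider intervals, and the Mof -/+ lists are shorter, with 338 and 64 peaks against 1876 and 898. Overlapping summits also had higher values, with medians of 24.2 and 5.19. The part of format, list length and summit value in these shares was not tested.

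The GATA1 classes were made by contact with a MOF list, so their contact with the other MOF lists is given as a description without a test. In wild-type HSC 0 of 411 GATA1-only intervals touched a MOF peak, which allows up to 0.730%, against 23 of 53 overlapping intervals. In Mof -/+ HSC 12 of 411 (2.92%) did, among them intervals in Aida and Arhgap21, against 44 of 53. In Mof -/+ MEP 6 of 411 (1.46%) did, 1 of which was the fifth GATA1 interval of Kat8, against 19 of 53 overlapping intervals.

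Counted over all 5 lists, 26 of 53 overlapping GATA1 intervals (49.1%) lay at positions found in 4 or 5 lists, and 11 of these in all 5. The latter included sites in Filip1l, Lars2, Cdk8, Zc3h7a, Jarid2 and Peak1, the one at the start of Kat8, and Rn18s-rs5. Of GATA1-only intervals 395 of 411 (96.1%) were in the GATA1 list alone. Of MOF-only summits 529 of 774 (68.3%) were in the wild-type MEP list alone. Without positions found in 4 or 5 lists, 27 GATA1 intervals and 27 MOF summits still overlapped, about as many as were removed. Most of these were still at recurrent positions. Of the 53 overlapping intervals, 23 lay at positions found in 3 lists, which include another MOF list. Only 4 (7.55%) lay at positions found in the 2 compared lists alone.

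**Figure D5:**
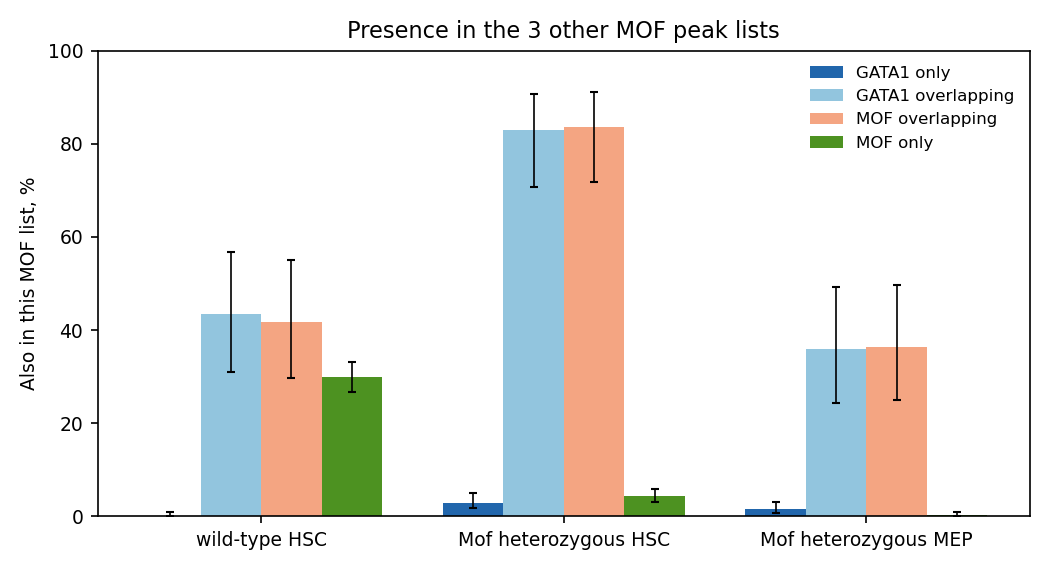
Share of each class, in percent, that shares at least 1 bp with a peak of each of the other 3 MOF lists, with 95% Wilson intervals as error bars. The overlapping classes reach 83.0 and 83.6% in Mof -/+ HSC, where the GATA1-only and MOF-only classes are at 2.92 and 4.26%.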

How the data were processed

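Peak lists of GATA1 in HPC7 and of MOF in wild-type MEP were compared, and the 3 other MOF lists were used for recurrence. The input and H4K16ac libraries were not analysed here. The submitters' processing notes name Bowtie2 2.3.0.1, the peak caller MACS2, deepTools and the build mm10, without settings. The deposited wild-type lists give summits with a −log10 value that no header explains. It was read as −log10 q, since its minimum lay just above −log10 of 0.05. The deposited Mof -/+ lists are intervals that also hold the authors' fold enrichment ratio and score, which were not used. The GATA1 list holds intervals without a score.

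Coordinates were made 1-based. Genes were those of RefSeq GRCm38.p6, with 21627 protein-coding genes, without strand or exons, so exon and intron were not separated. Summits were extended by 150 bp per side. Midpoints decided location. A gene list member was counted if a peak touched its body extended by 5 kb. Shares have 95% Wilson intervals, differences of shares Newcombe intervals, and a count of 0 an upper limit of 3 counts. Class shares were compared by two-sided Fisher's exact tests with Benjamini-Hochberg adjustment over 15 tests. Shares of GATA1 classes in the other MOF lists are given without a test, since contact with MOF made the classes. Their comparisons are nevertheless among the 15, so the adjusted p-values depend partly on them. The procedure was tested on simulated lists. Python 3.11.15, pandas 2.3.3 and scipy 1.17.1 were used.

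Genes named are those nearest to the 15 overlapping sites with the highest MOF value, the 10 widest GATA1-only intervals and the 10 highest MOF-only summits, all genes with both factors at separate positions, and list members, up to 4 per list for MOF. Of these, 2 genes are counted but not reported here by name. Further genes were named after their values were seen. The members, the 13 gene lists and the tests were chosen with earlier results of these data known. The motifs other than the GATA letters were chosen after the data were seen.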

Additional observations from a re-analysis of the deposited data

Results flagged for a closer look

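Positions that the comparison left out also held shared sites. Of the 13 GATA1 intervals on unplaced sequences, on chromosome Y or on chromosome 9 below 4 Mb, 8 overlapped a MOF summit, and 55 of the 69 MOF summits left out in the same way or on the mitochondrial genome overlapped GATA1. Chromosome 9 below 4 Mb held 25 of those summits and 1 of those intervals. The 55 summits thus fell on only 8 intervals, and the widest deposited interval, 38291 bp, was among those left out. With this part of chromosome 9 kept, the overlap was 54 intervals and 79 summits.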

How the results depend on the processing

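The overlap counts stayed within 1.5 times of 53 and 55 under every planned change of extension, minimum overlap, MOF value, GATA1 width and chromosome 9, and fell to 27 GATA1 intervals and 27 MOF summits without positions in 4 or 5 lists, a setting chosen after seeing the data. The count of genes with both factors at separate positions was 6 with the gene body alone, 39 with 20 kb per side, 9 with MOF summits above the median value and 8 with GATA1 intervals wider than the median. The first pair of these settings changed only the width of the window. The second pair kept fewer members, chosen by value or by width, and the part of number and choice was not tested. With MOF summits above the median value, the difference between GATA1-only and MOF-only members was -3.49 points in Mof -/+ HSC, against -1.34 in the main setting. In Mof -/+ MEP it was 0.897 points, against 1.20. Both were counted as changed because they crossed the threshold of 0.05, which is not read as a result. The rule had already divided these classes by contact with MOF, so no test is given for them, and the cause was not tested. The other 56 alternative values kept their side of the threshold or stayed within 1.5 times, although the gene-end difference between overlapping and GATA1-only intervals, which passed the test in none, changed sign in 3 of them (-1.28, -2.73 and -2.38). Not all of the 56 could change. GATA1-only and MOF-only members had 0 positions in 4 or 5 lists, so leaving those out could not alter their gene-end difference or the 15 genes. Some of the 56 also compare GATA1 classes in the other MOF lists. Depth is unknown, so a missing peak may lie under the caller's threshold. No paired analysis was possible because each group had 1 library.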
